A study of Mus musculus with 6 samples.

Results

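Topoisomerases and the enzymes that clear proteins trapped on DNA were examined as 8 genes, Top1, Top2a, Top2b, Top3a, Top3b, Tdp1, Tdp2 and Sprtn, of 21887 protein-coding genes in the RefSeq gene table of GRCm38.p6 (mm10). They were chosen by name, and a DNA break peak was assigned to a gene when its summit lay inside the gene body or within 1 kb of either end. The breaks were mapped by BrITL, which adds a biotinylated nucleotide to DNA ends in permeabilised cells, captures the labelled fragments on streptavidin beads and sequences them. All 6 samples came from passage-immortalized mouse embryonic fibroblasts of genotype ATR+/- that express Bcl-xL, so the vehicle cells also carried a single working Atr allele and an inhibitor of apoptosis. Cells were given DMSO for 18 h, or 1 µM of the ATR inhibitor ATR-45 with 0.2 µM aphidicolin, an inhibitor of replicative DNA polymerases, for 18 h (called treated below). The vehicle and the treated groups comprised 2 pull-down libraries each, beside 1 input library each. The labels do not say whether the replicates were separate cultures, or whether the cells were 1 clone.

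The deposited values were 1 peak list per condition, made by setting all pull-downs of a condition against all its inputs. No value therefore had a replicate error, no test between conditions could be made, and every count below describes these 2 lists. The lists hold no expression values, so the fibroblast label could not be checked against marker genes. The DMSO list held 6444 peaks and the treated list 491. Read totals are unknown, but the pull-down coverage at each summit was recovered from the fold and p the authors' caller gave, and its counting error is given as an exact 95% Poisson interval. The intervals cover counting error only, not variation between cultures or amplification of the same fragment.

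Topoisomerases relieve the twist that builds up ahead of and behind moving polymerases by cutting DNA, passing strands and closing the cut again, while a tyrosine of the enzyme stays bound to the DNA end. Type I enzymes cut a single strand and type II enzymes cut both. When closure fails, the enzyme remains as a protein adduct on a broken end. TDP1 removes remnants of topoisomerase I from the 3′ end of DNA, TDP2 removes those of topoisomerase II from the 5′ end, and SPRTN is a protease that degrades proteins crosslinked to DNA, above all at replication forks. A peak at these genes says where labelled ends were found and nothing about the activity of the encoded enzymes.

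In the DMSO list, 5 of the 8 genes held a summit (62.5%), namely Top1, Top2a, Top2b, Tdp1 and Tdp2, with 1 summit each. The share of all protein-coding genes was 23.8%, and it was 27.6% among the 11505 protein-coding genes in the length range of the 8. Top3a, Top3b and Sprtn held none. With peaks below the median fold left out it was 3 of 8 against 14.3%, in gene bodies alone 2 of 8 against 13.2%, and at −log10 q of at least 50 none of 8 against 2.83%. All 5 summits lay within 1 kb of a gene end, so by that rule it was again 5 of 8, against 19.5% of all protein-coding genes. Such a position was common, as 4272 of the 5215 protein-coding genes with a DMSO summit held one there. None of the 8 genes held a summit of the treated list, against 1.16% of all protein-coding genes, 1.23% of those in the length range of the 8, and 0.685% for summits within 1 kb of an end, so an empty set of 8 is close to what that list gives for any genes.

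**Figure D1:**
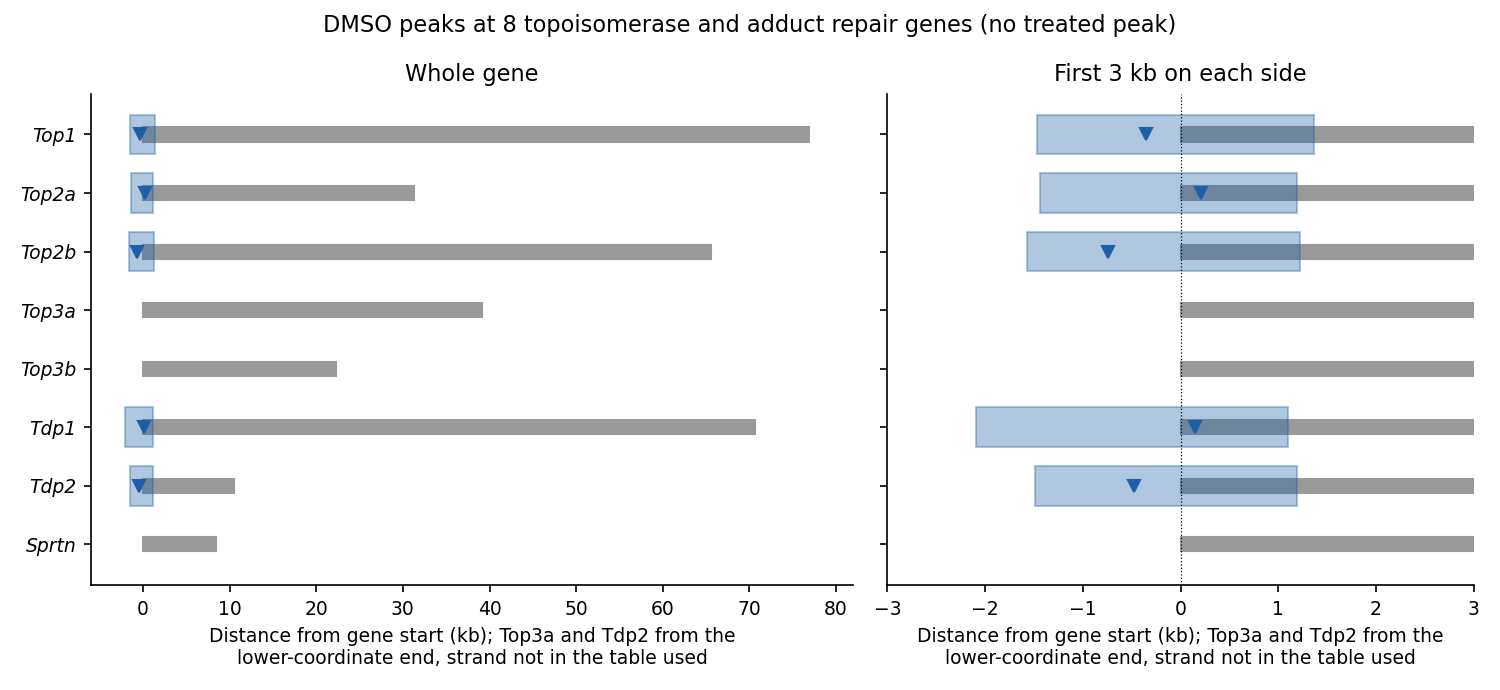
Gene bodies (grey bars) and DMSO peaks (blue boxes, with the summit as a triangle) of the 8 genes, by distance in kb from the gene start, for the whole gene on the left and for 3 kb on each side of the start on the right. For Top3a and Tdp2 the lower-coordinate end stands in for the start. The peaks of Top1, Top2a, Top2b and Tdp1 span the start, and that of Tdp2 spans its lower-coordinate end. The rest of every gene body is free of peaks.

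The start sites of Top1, Top2a, Top2b and Tdp1 all lay under a DMSO peak, and those of Top3b and Sprtn did not, so the 300-base RefSeq promoter windows of these 6 genes are shown for comparison. Each runs 5′ to 3′ on the gene's own strand from 250 bases before the start to 50 after it, in build GRCm38.p6. Capitals mark the motifs searched on both strands, which were the NF-Y motif CCAAT, the Sp and KLF motif GGGCGG, the cell cycle element TTTGAA (called CHR), the cAMP response element TGACGTCA, the core promoter box TATAAA, the ETS factor motif CCGGAAG and the AP-1 motif TGAGTCA.
Top1, covered by a DMSO peak, chr2:160645647-160645946, plus strand: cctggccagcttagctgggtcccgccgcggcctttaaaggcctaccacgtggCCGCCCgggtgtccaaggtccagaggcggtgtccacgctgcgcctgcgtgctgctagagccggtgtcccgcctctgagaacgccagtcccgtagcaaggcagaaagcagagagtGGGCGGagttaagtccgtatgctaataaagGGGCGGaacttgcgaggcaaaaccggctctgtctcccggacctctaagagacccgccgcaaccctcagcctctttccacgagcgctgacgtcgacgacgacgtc
Top2a, covered, chr11:99024140-99024439, minus strand: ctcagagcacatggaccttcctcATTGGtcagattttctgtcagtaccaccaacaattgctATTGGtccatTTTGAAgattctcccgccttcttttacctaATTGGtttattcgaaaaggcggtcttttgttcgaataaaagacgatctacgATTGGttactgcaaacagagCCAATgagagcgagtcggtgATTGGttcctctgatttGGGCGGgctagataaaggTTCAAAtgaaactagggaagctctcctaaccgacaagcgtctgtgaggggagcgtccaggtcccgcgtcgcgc
Top2b, covered, chr14:16364956-16365255, plus strand: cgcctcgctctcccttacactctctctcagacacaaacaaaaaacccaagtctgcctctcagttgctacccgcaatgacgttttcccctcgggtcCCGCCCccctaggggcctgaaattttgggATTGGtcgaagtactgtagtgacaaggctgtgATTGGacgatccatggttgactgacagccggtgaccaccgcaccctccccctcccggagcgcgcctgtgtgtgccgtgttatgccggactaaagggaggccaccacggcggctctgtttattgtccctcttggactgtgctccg
Tdp1, covered, chr12:99884268-99884567, plus strand: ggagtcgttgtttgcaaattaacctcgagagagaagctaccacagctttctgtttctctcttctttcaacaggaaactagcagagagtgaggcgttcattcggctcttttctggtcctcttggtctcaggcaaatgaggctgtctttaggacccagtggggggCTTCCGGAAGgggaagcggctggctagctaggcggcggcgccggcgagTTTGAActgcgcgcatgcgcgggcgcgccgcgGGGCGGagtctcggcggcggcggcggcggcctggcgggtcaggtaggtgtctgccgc
Top3b, not covered, chr16:16870486-16870785, plus strand: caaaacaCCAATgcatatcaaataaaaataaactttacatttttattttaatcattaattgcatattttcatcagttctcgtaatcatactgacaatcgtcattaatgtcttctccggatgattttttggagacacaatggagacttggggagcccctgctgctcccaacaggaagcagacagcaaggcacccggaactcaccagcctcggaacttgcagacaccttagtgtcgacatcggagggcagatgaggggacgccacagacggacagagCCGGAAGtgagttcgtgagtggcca
Sprtn, not covered, chr8:124897644-124897943, plus strand: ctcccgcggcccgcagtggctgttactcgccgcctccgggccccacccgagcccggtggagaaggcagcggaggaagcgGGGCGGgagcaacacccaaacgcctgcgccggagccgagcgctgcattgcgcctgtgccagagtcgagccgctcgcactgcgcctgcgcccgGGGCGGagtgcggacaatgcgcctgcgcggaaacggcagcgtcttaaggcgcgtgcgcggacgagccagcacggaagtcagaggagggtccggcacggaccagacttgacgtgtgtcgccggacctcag

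Top1 encodes the main nuclear topoisomerase I, which relaxes DNA during transcription and replication. It held the strongest peak of the group. The gene spans 160645897 to 160722764 on chromosome 2 (76.9 kb), and the peak spans 160644426 to 160647262, with a fold enrichment of 15.1 and a −log10 q of 43.3, both computed by the authors' caller. The summit lay 357 bp upstream of the start, outside the gene body, and was covered by 61 pull-down fragments (interval 46.7 to 78.4). The pull-down background, which is the floor of the caller's background term put in pull-down fragments, was 2.88. By fold the peak ranked 977 of 6444, so 16.1% of DMSO peaks were at or above it. No other protein-coding gene shared its window. A further DMSO summit lay 9.45 kb beyond the other end of Top1, at Plcg1, a phospholipase gene (fold 9.29).

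The topoisomerase II genes both held a DMSO peak over the start, Top2a on chromosome 11 and Top2b on chromosome 14. Top2a, whose product separates sister chromatids and is made mainly in dividing cells, spans 98992947 to 99024199 on the minus strand. Its peak (99023008 to 99025634) had a fold of 12.7, a −log10 q of 33.3 and 51 fragments at the summit (interval 38.0 to 67.1). The summit lay 196 bp downstream of the start. Top2b, whose product is also present in cells that do not divide and acts in transcription, spans 16365206 to 16430787. Its peak (16363633 to 16366423) had a fold of 10.0, a −log10 q of 22.8 and 40 fragments (interval 28.6 to 54.5). Its summit was the farthest from a start, 743 bp upstream, and is the nearest of the 5 to the 1 kb limit of the assignment. The intervals of Top2a and Top2b overlap, and whether their counts differ was not tested. The other end of Top2b lies 52 bp from Rarb, a retinoic acid receptor gene on the opposite strand, and no DMSO summit lay there.

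Tdp1 and Tdp2 each shared their peak with a neighbouring gene. Tdp1 (99884515 to 99955223 on chromosome 12, plus strand) lies 73 bp from Efcab11, a gene on the minus strand, so the starts face away from each other. The peak (99882420 to 99885618) had the lowest fold of the 5 at 9.29, with a −log10 q of 19.5 and 37 fragments (interval 26.1 to 51.0). The summit lay 145 bp downstream of the Tdp1 start and 221 bp from Efcab11. Tdp2 (24831659 to 24842153 on chromosome 13) lies 170 bp from Acot13, a thioesterase gene. Its peak (24830165 to 24832853) had a fold of 13.4, a −log10 q of 35.7 and 54 fragments (interval 40.6 to 70.5), the next after Top1. That summit lay 475 bp outside Tdp2 and inside Acot13, 305 bp from its end. The ends counted at these 2 summits cannot be assigned to either gene of a pair. Of the 4979 DMSO summits in the window of a protein-coding gene, 16.9% lay in the window of 2 or more.

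Top3a and Top3b encode type IA topoisomerases, of which the first acts with BLM in resolving recombination intermediates and the second also acts on RNA. Neither held a DMSO peak. For Top3a (60738209 to 60777365 on chromosome 11) the nearest DMSO summit lay 34.2 kb away at Shmt1, a gene of folate metabolism (fold 10.7), and none lay at its end 160 bp from Smcr8. For Top3b (16870722 to 16892986 on chromosome 16) the nearest lay 239 kb away at Sdf2l1, a gene of the endoplasmic reticulum (fold 9.53). Sprtn (124897771 to 124906161 on chromosome 8) is the shortest of the 8 genes at 8.39 kb, and the nearest DMSO summit lay 20.8 kb away inside Egln1, an oxygen-sensing hydroxylase gene (fold 9.51). Sprtn lies 66 bp from Exoc8 on the opposite strand, the same arrangement as Tdp1 and Efcab11, but without a listed peak. No DMSO peak had fewer than 35 fragments at its summit, so these 3 genes may hold ends below that number, and their absence from the list is not a level of 0.

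**Figure D2:**
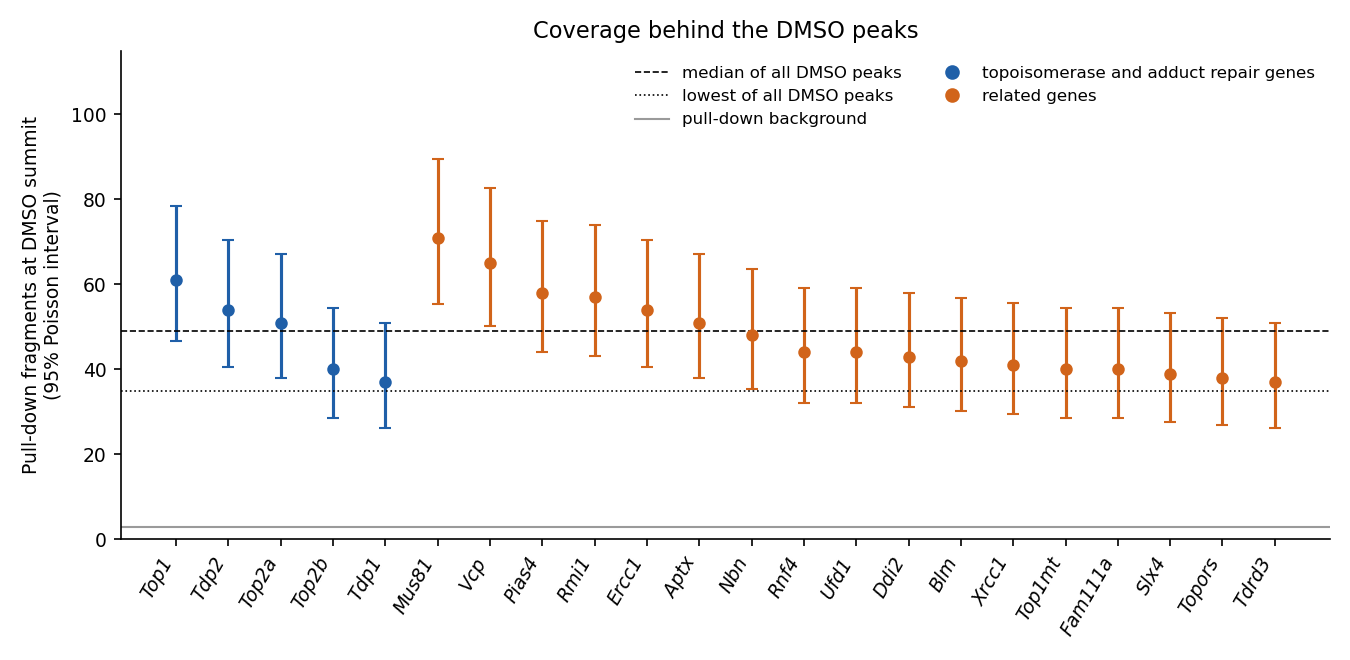
Pull-down fragments at the DMSO summit with exact 95% Poisson intervals for the 5 genes with a peak (blue) and for 17 related genes (orange), with lines at the median (49) and lowest (35) of all DMSO peaks and at the pull-down background (2.88). The pull-down background is the floor of the caller's background term, put in pull-down fragments. The blue intervals all overlap, from 61 fragments at Top1 to 37 at Tdp1.

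Ordered by fragments, the 5 genes ran from Top1 (61) over Tdp2 (54), Top2a (51) and Top2b (40) to Tdp1 (37). The intervals of every neighbouring pair overlapped, and so did those of Top1 and Tdp1 at the extremes, 46.7 to 78.4 and 26.1 to 51.0. Overlap of intervals is not a test, and whether the counts differ was not tested. Each count also comes from a peak that made the list, where the lowest was 35, and the intervals do not allow for that. Top1, Tdp2 and Top2a were above the median fold of the DMSO list (10.99), and Top2b and Tdp1 were below it. The background term that the caller set against the pull-down was at the floor of the list at all 5 summits, as at 69.3% of DMSO peaks. That floor was 2.32 on the caller's scale, which is 2.88 when put in pull-down fragments. Differences in fold among the 5 therefore reflect pull-down coverage alone. Peak widths were alike, between 2627 and 3199 bp, against a median of 2855 bp for the list.

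The genes most like each of the 5 were taken as those with the nearest fold in the DMSO list, over 1 pooled list, with ties settled by peak width. For Top1, 57 protein-coding genes outside the lists had the same fold, and the nearest in width were Pip4p1, Dcaf17 and Mettl8. For Top2a there were 130 (Pex5, Inpp5f and Naa35 nearest) and for Top2b 203 (Morf4l2, Mterf3 and Ptdss1). For Tdp1 there were 215 (Efcab11, which has the same peak, then Pdzd8 and Zc3h12a) and for Tdp2 82 (Acot13, which has the same peak, then Mpp5 and Bach2). The folds of the 5 are thus shared by many genes. At the floor of the background term, each whole number of fragments gives 1 fold. Such ties therefore follow from the counting and mark no particular likeness between the genes.

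The position of the summits was also common. For 4302 protein-coding genes with a DMSO summit and a start in the promoter table, 87.0% had a summit within 1 kb of a start, and 2.88% had one within 1 kb of the other end without one at a start. Among the 3741 with a summit at the start the median distance from start to summit was −136 bp (negative is upstream), with quartiles of −364 and 117 bp, and 65.1% of summits were upstream. Top1 lay within those quartiles, Top2b farther upstream, and Tdp1 and Top2a farther downstream. The peaks of these 4 genes reached from 1445 to 2098 bp upstream of the start and from 1100 to 1365 bp downstream of it.

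**Figure D3:**
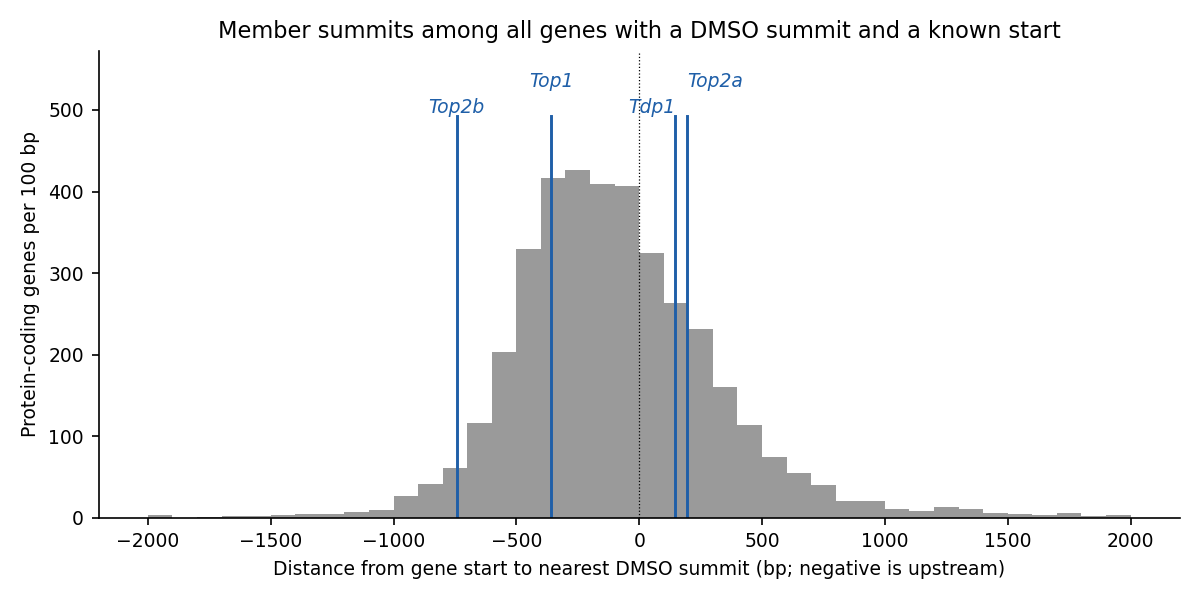
Distance in bp from the gene start to the nearest DMSO summit (negative is upstream) for protein-coding genes with a DMSO summit and a known start, in bins of 100 bp, with Top1, Top2a, Top2b and Tdp1 as blue lines. Top2b lies 743 bp upstream, in the left tail, and the other genes lie within the main peak of the distribution.

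The promoter windows differed in motifs and in base composition. The Top2a window held 6 CCAAT motifs, first bases at −227, −189, −149, −98, −78 and −58 from the start, of which the one at −78 reads as written and the others are reverse complements. Only 20 of 21263 promoter windows of protein-coding genes (0.0941%) held 6 or more, and 38.2% held at least 1. It also held 2 TTTGAA motifs, a count that 1.97% of windows reached, and 1 GGGCGG motif at −41. CCAAT and CHR elements are known as the sites through which cell cycle genes are regulated, and Top2a is a long-known example. Top2b held 2 CCAAT motifs, at −126 and −94, and 1 GGGCGG motif, and 12.8% of windows had 2 or more CCAAT. Top1 held no CCAAT and 3 GGGCGG motifs, at −198, −84 and −54, a count that 14.7% of windows reached. Tdp1 held 1 GGGCGG motif, 1 TTTGAA motif and a CCGGAAG motif on each strand that overlap each other, while CCGGAAG was found in 11.6% of windows.

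Of the windows without a peak, Sprtn held 2 GGGCGG motifs and Top3b held none, with 1 CCAAT and 1 CCGGAAG. Over all windows, GGGCGG was in 75.7% of the 4605 that a DMSO peak covered and in 38.0% of the 16658 that none covered. In the same order, CCAAT was in 44.2% and 36.5%, CCGGAAG in 18.5% and 9.66%, and TTTGAA in 9.75% and 17.7%. TATAAA was in 4.73% and 14.8%, TGACGTCA in 3.65% and 1.84%, and TGAGTCA in 3.15% and 5.07%, and none of these 3 was in the windows of the 6 genes. Motif matches are descriptions of letters, not of bound sites.

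GC content was 64.0% at Top1, 62.0% at Tdp1, 58.3% at Top2b and 47.7% at Top2a, against a median of 64.3% for covered windows (quartiles 58.7 and 69.7%) and 54.0% for windows not covered. CpG dinucleotides, as a ratio of the number observed to that set by C and G content, were at 0.945, 1.00, 0.720 and 0.940, against medians of 0.833 (covered) and 0.414 (not covered). Top2a thus had a GC content below the first quartile of covered windows with a CpG ratio above their median. Top3b, without a peak, had 45.7% GC and a ratio of 0.704. Sprtn, also without one, had the highest values of the 6 at 72.0% and 1.06, above the third quartiles of windows not covered (61.7% and 0.746).

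**Figure D4:**
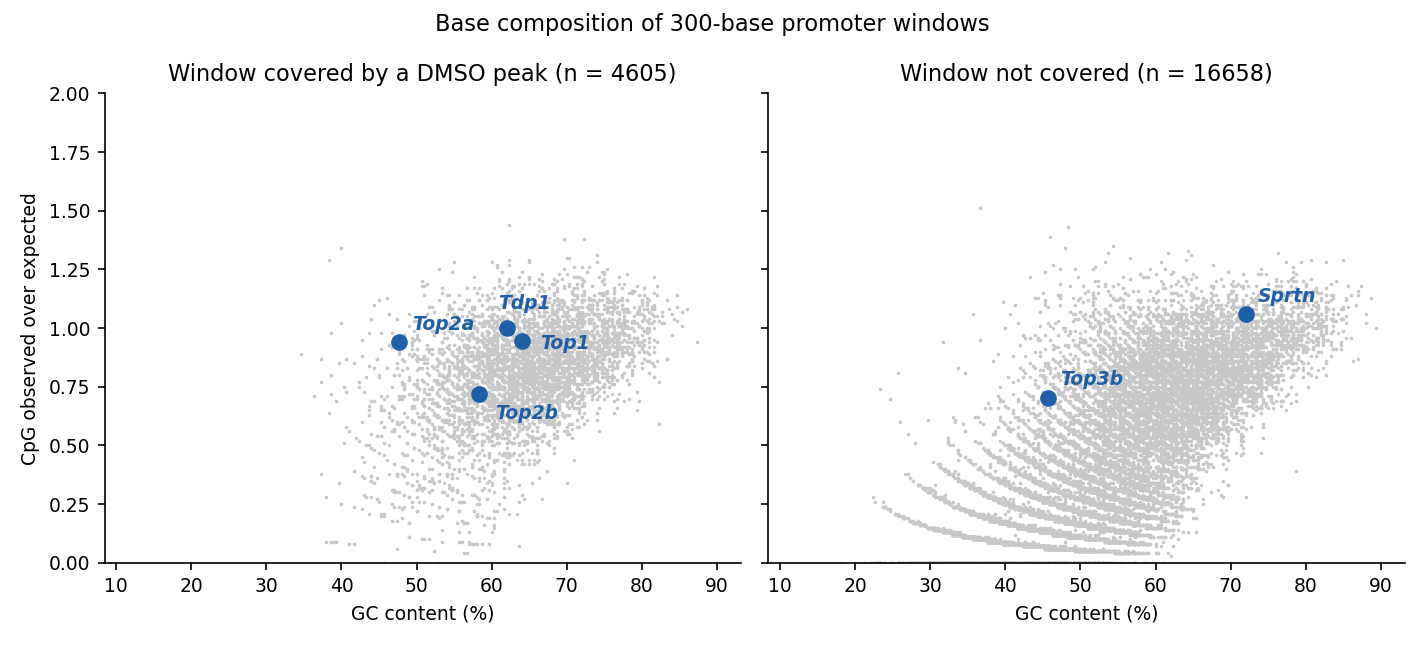
GC content in percent against the CpG observed over expected ratio of 300-base promoter windows of protein-coding genes (grey points), for windows covered by a DMSO peak on the left (4605) and not covered on the right (16658), with the 6 genes that have a window in blue. Sprtn (72.0%, 1.06) lies above the third quartiles of the windows not covered (61.7% and 0.746). Top2a (47.7%, 0.940) lies below the first quartile of GC content of the covered windows (58.7%).

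Genes that work with these enzymes were described from a list of 35 names. In the DMSO list, 17 of the 35 held a summit (48.6%), against 23.8% of all protein-coding genes. The difference depended on summits just outside genes and on the weaker peaks: in gene bodies alone it was 4 of 35 (11.4%) against 13.2%, at or above the median fold 6 of 35 (17.1%) against 14.3%, and at −log10 q of at least 50 it was 1 of 35 (2.86%) against 2.83%. Their median fold was 10.7, against 10.99 for the list and 12.7 for the 5 summits above. None held a treated summit, against 1.16% of all protein-coding genes. Of the 17 summits, 15 lay within 1 kb of a gene end and 5 lay in the window of another protein-coding gene as well. The background term was at the floor of the list at 13 of the 17. It was higher at Blm, Slx4, Aptx and Fam111a, so the order by fold is not the order by fragments there.

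Among the partners of the TOP3 enzymes, 3 of 5 held a DMSO summit. Rmi1, a subunit of the complex of TOP3A and BLM, had the strongest (fold 14.1, 57 fragments, interval 43.2 to 73.9), in a window shared with Hnrnpk. Blm, the helicase gene of that complex (fold 8.70, 42 fragments), and Tdrd3, the partner of TOP3B (fold 9.29, 37 fragments), also held 1 each. Rmi2 and Fmr1 held none. With 23.8% of all protein-coding genes holding a DMSO summit, no contrast with Top3a and Top3b can be read from so few genes.

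Of the nucleases and scaffolds that cut away protein-blocked ends, 4 of 9 held a summit, against 23.8% of all protein-coding genes. So small a group is described only. Mus81, a structure-specific endonuclease gene, had the highest fold of all these genes (17.5, rank 413, 71 fragments, interval 55.5 to 89.6) in a peak 6206 bp wide. Ercc1 (fold 13.4), a subunit of another such nuclease, and Nbn (fold 11.96), of the MRN complex that starts end resection, had theirs 1281 and 1097 bp inside the gene from the nearest end, beyond the 1 kb limit, although a start in the promoter table lay 277 bp from the Ercc1 summit. Slx4 had a fold of 8.10. Mre11a, Rad50, Rbbp8, Ercc4 and Eme1 held none.

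The counts of the remaining groups stand beside 23.8% of all protein-coding genes, and each rests on few genes. Of the genes of single-strand break repair, into which TDP1 feeds, 2 of 6 held a summit, Aptx (fold 10.5) and Xrcc1 (fold 10.3). The Aptx summit lay 533 bp outside the gene, at −19006 bp from its nearest start in the promoter table (negative is upstream) and in a window shared with Dnaja1, and the Xrcc1 summit lay in a window shared with Pinlyp. Parp1, Aplf, Lig3 and Polb held none. Of the genes that place SUMO or ubiquitin on trapped topoisomerases, 3 of 4 did, Pias4 (fold 14.4), Rnf4 (fold 10.99) and Topors (fold 9.53), the last in a window shared with Smim27 and Ndufb6. Of the proteases and the segregase that clear adducts, 4 of 8 did. Vcp, the gene of the segregase p97, led them (fold 16.1, 65 fragments, interval 50.2 to 82.8), ahead of its cofactor gene Ufd1 (10.99, in a window shared with Cdc45), Ddi2 (10.7) and Fam111a (9.92). The mitochondrial enzyme gene Top1mt (fold 10.0) was the only one of the 3 other topoisomerase genes with a summit, and Spo11, which cuts DNA in meiosis, and Gm960, which encodes its partner TOPOVIBL, had none.

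The treated list had no summit near any of the 8 genes. The nearest lay between 1304 kb away (Top3a, fold 5.03) and 15680 kb away (Top2b, fold 5.43). None of the 5 DMSO peaks met a treated peak, against 2.90% of DMSO peaks. In the range of fold spanned by the 5, 24 of 4415 DMSO peaks (0.544%) met a treated peak, and above the fold of Top1 127 of 976 did (13.0%). An empty overlap of 5 is thus close to what the list gives for peaks of this strength. The lowest number of fragments at a treated summit was also 35. At the input background this number gave a fold of 5.03 in the treated list but 8.80 in the DMSO list. Folds of the lists are thus not on the same scale. The DMSO folds of 9.29 to 15.1 at the 5 genes cannot be set against treated folds. How peaks were selected for the lists is not stated in these sources, and their lowest −log10 q differed (18.5 and 3.38). A treated value at the 8 genes was therefore not measured, and no change with treatment can be read from them.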

How the data were processed

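BrITL libraries from 6 samples were analysed through the 2 peak lists the authors deposited. Per the submitters' processing notes, the build was mm10 and the tools included MACS2 2.1.0 (a peak caller) and STAR 2.5.2a (an aligner), with Picard 1.141, SAMtools 0.1.19 and bcl2fastq 2.17.1.14, all without settings. The peak names state that each list pools all pull-downs and inputs of a condition. The deposited fold enrichment is a ratio of pull-down to background at the summit, and the deposited −log10 p and −log10 q values are the caller's. The deposited score equals 10 times −log10 p, cut to a whole number, and was not used.

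Summits were assigned to genes of a RefSeq table (49943 genes, 21 chromosomes). Promoter windows and strands came from a RefSeq table with starts for 17492 of the protein-coding genes and 6 of the 8 genes. Pull-down fragments were recovered from the fold, (pileup + 1) / (background + 1) in this caller, and from p, an upper Poisson tail. The pileup is the number of pull-down fragments multiplied by a scaling step, which was 0.8052 for DMSO peaks and 0.4394 for treated peaks. A solution was accepted within 0.02 of a whole fragment, which held for 100% of peaks, and the code was tested on simulated data. Overlap meant at least 1 bp. Of the 35 related names, 2 were matched by synonym (Gm960 and Gcna), and 1 further gene of the planned list is not reported here. The 8 genes and the related genes were chosen with earlier results of these data known. All 8 genes are named, and of the related genes those with a summit. Related genes without a summit are named in some groups only, to complete the counts there. The settling of ties by width was added after values were seen. Alternatives were other windows, whole-peak overlap, stricter q and fold limits, and other rules of overlap. Calculations used pandas 2.3.3, SciPy 1.17.1 and NumPy 2.4.6 in Python 3.11.15.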

Additional observations from a re-analysis of the deposited data

How the results depend on the processing

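The counts of genes with a DMSO summit depended on the window and on peak strength. Counted in the gene body alone, 2 of the 8 genes (Top2a and Tdp1) and 4 of the 35 related genes held a DMSO summit, against 13.2% of all protein-coding genes. At −log10 q of at least 50 it was 0 and 1 (2.83% of all), and with peaks below the median fold left out it was 3 and 6 (14.3% of all). The share of the related genes was thus below that of all genes in gene bodies and close to it at the stricter limits. With 5 kb at each end, 5 of the 8 genes and 17 of the 35 related genes held one (26.6% of all). With 10 kb it was 5 and 18 (29.9% of all). Within 1 kb of an end alone it was 5 and 15 (19.5% of all), and by overlap of the whole peak 5 and 17 (25.1% of all). The shares of both sets were above that of all genes in these settings. The counts of treated summits at both sets, and of the 5 peaks met by a treated peak, were 0 under every alternative run. No paired analysis was possible because each list pools its replicates, and for the same reason no replicate could be left out. Depth per sample is unknown, and sites with under 35 pull-down fragments are in neither list.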
